A study of Homo sapiens with 24 samples.

Results

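The CAMK2, PRICKLE and NKD genes of WNT signalling were followed in a pair of human high-grade serous ovarian carcinoma lines. The members are the 10 genes of the 3 families, CAMK2A, CAMK2B, CAMK2D, CAMK2G, PRICKLE1, PRICKLE2, PRICKLE3, PRICKLE4, NKD1 and NKD2, chosen by name from the 28277 genes of each count table. PEO1 (chemosensitive) and PEO4 (chemoresistant) are established lines of the same patient. One set of 6 libraries compared untreated PEO1 cells, which are BRCA2-deficient, with untreated PEO4 cells, in which BRCA2 is functional. A second set of 18 libraries compared PEO1BRCA+ cells, a PEO1 derivative that regained BRCA2 by spontaneous reversion, with PEO4 cells, each without treatment or after 2 or 6 h with 5 µM pyridostatin (PDS), a small molecule that binds G-quadruplexes (G4s), the 4-stranded structures that guanine-rich DNA can form. Each of the 8 conditions had 3 replicate libraries. Since each group is a single line, resistance and line identity cannot be told apart.

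WNT ligands act through beta-catenin or through beta-catenin-independent branches. In the WNT/calcium branch, calcium bound to calmodulin activates the CAMK2 kinases, which assemble from the products of the CAMK2A, CAMK2B, CAMK2D and CAMK2G genes. CAMK2A and CAMK2B are best known from neurons, and CAMK2D and CAMK2G are expressed in many tissues. In the planar cell polarity branch, PRICKLE proteins belong to the core complex with VANGL and Dishevelled. NKD proteins bind Dishevelled and dampen beta-catenin signalling, and NKD1 is itself a common target of that signalling.

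On GRCh38, in GENCODE release 44, the CAMK2 genes are protein-coding genes on the minus strand, with CAMK2A at chr5:150219491-150290093, CAMK2B at chr7:44210019-44334577, CAMK2D at chr4:113418054-113761927 and CAMK2G at chr10:73812501-73874591. PRICKLE1 (chr12:42456757-42590355), PRICKLE2 (chr3:64092236-64445476) and PRICKLE3 (chrX:49174802-49186528) also lie on the minus strand. PRICKLE4 (chr6:41780782-41787452), NKD1 (chr16:50548396-50649249) and NKD2 (chr5:1008802-1038943) lie on the plus strand. The counts cover whole genes, so transcripts of one gene are not separated.

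PDS binds G4s, which guanine-rich DNA can form. The 250 bases before a transcript start listed by RefSeq (GRCh38.p14) are therefore shown for CAMK2B, PRICKLE1, PRICKLE2 and PRICKLE4. These 4 members were called in PEO4 cells after treatment. The fifth member called there, NKD1, had no window to show. Each is written 5′ to 3′ on the gene's strand, and capitals mark every run of 3 or more G or C. The windows are chr7:44325595-44325844 (minus strand) for CAMK2B, chr12:42483616-42483865 (minus strand) for PRICKLE1, chr3:64268174-64268423 (minus strand, the first of 2 listed starts) for PRICKLE2 and chr6:41780532-41780781 (plus strand) for PRICKLE4.
CAMK2B: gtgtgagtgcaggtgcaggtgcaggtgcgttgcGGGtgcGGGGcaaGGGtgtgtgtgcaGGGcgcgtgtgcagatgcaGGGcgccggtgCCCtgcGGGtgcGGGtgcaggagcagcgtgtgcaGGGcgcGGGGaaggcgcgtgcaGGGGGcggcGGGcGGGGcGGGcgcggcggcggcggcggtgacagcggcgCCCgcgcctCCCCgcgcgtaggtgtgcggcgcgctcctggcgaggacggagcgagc
PRICKLE1: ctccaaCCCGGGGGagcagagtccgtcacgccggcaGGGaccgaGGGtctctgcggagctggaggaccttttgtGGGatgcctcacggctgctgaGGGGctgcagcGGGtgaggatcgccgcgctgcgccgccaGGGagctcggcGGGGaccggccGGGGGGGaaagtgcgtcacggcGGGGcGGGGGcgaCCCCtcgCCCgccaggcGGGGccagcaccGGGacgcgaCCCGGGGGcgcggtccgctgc
PRICKLE2: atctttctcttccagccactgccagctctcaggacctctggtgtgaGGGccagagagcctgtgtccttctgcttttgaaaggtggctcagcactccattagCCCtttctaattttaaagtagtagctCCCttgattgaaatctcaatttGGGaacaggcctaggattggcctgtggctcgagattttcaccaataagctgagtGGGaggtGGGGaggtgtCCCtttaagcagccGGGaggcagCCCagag
PRICKLE4: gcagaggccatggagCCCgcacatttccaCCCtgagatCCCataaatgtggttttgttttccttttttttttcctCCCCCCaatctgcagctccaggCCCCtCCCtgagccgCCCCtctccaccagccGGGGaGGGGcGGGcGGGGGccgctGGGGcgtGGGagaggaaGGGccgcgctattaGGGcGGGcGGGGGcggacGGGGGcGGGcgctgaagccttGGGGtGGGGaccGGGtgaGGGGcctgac
A G4 pattern, 4 runs of GGG with 1 to 7 bases of any kind between neighbouring runs, was searched on both strands. It was found in the windows of CAMK2B and PRICKLE4 on the gene's strand, and in that of CAMK2G on both strands. It was not found in the windows of CAMK2A, CAMK2D, PRICKLE1, PRICKLE2, PRICKLE3 or NKD2, with both listed starts searched for PRICKLE2 and PRICKLE3. The starts used for PRICKLE1, CAMK2B and CAMK2A lie inside the outermost RefSeq bounds of the gene, which for PRICKLE1 reach to position 42589746. Windows before their other starts were not searched. For PRICKLE2 the GENCODE bounds reach further upstream, to position 64445476, and no window there was searched. For scale, 23.3% of the 35116 windows in the table held the pattern. The match describes letters only and says nothing of whether a G4 forms. Introns and intergenic regions, where the paper associates new G4s with raised expression, were not searched beyond these windows. Of the 4 members shown, CAMK2B and PRICKLE4 (both fell in PEO4 cells after PDS) held it, and PRICKLE2 (fell) and PRICKLE1 (rose) did not. CAMK2G held it and was not called after PDS. It was lower in PEO4 cells by 1.62-fold at 2 h and 1.69-fold at 6 h, short of the fold threshold for a call.

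Total counts on genes lay between 32528913 and 63882077 in the set of 6 libraries. In the set of 18 they lay between 18699929 and 22375644 in untreated cells and between 33260167 and 43713947 in PDS-treated cells, so every treated library was deeper than every untreated one. Ribosomal RNA genes took 0.217 to 0.474% of counts in untreated and 0.0163 to 0.0369% in treated libraries of that set. The part of depth and of RNA composition in the differences after PDS was not tested. Ovarian carcinoma markers summed to between 4273 and 14047 CPM (counts scaled to the TMM-adjusted library total), and 8 or 9 of the 10 exceeded 1 CPM in each condition. SOX17 was below 1 CPM throughout, at most 0.197 CPM as a condition mean, and MECOM was at 0.0103 CPM in its lowest condition. Within this list MECOM rose in PEO4 cells after PDS (log2 5.32 at 2 h and 6.01 at 6 h) and MUC16 fell at 6 h (log2 -3.40), and MUC16 also fell in PEO1BRCA+ cells (log2 -2.29 at 2 h and -2.59 at 6 h). Of the 7 neuronal markers, NEFL, STMN2 and GAP43 were at or near 0, and 2 exceeded 1 CPM in each condition. These were SYT1 (up to 41.9 CPM) and SYN1 (up to 6.88 CPM), as condition means. In PEO4 cells SYT1 rose (log2 2.48 at 2 h and 1.42 at 6 h) and SYN1 fell (log2 -1.56 and -1.30). In PEO1BRCA+ cells both fell at 6 h (log2 -1.12 for SYT1 and -1.01 for SYN1). SNAP25 was at most 0.356 CPM as a condition mean. It was called higher in untreated PEO4 than in PEO1BRCA+ cells (log2 3.42), and lower in PEO4 cells at 6 h (log2 -2.61). Condition means of the leukocyte markers PTPRC and CD3E were at most 0.0228 CPM. Those of CD68 lay between 24.9 and 72.4 CPM and those of CD14 between 1.06 and 5.90 CPM. CD14 rose in PEO4 cells at 2 h (log2 1.57). The 5 fibroblast markers summed to between 29.7 and 31 CPM in untreated PEO4 cells of the 18-library set. They summed to between 8.47 and 12.2 CPM at 2 h and to between 3.29 and 4.49 CPM at 6 h. COL1A1 was at log2 -1.92 and -2.99 and COL1A2 at log2 -2.96 at 6 h. DCN and LUM were at most 0.326 CPM as condition means. In PEO1BRCA+ cells the 5 fibroblast markers summed to between 2.73 and 7.19 CPM at all times. The 6-library set went the other way, with sums of 32.4 to 36.9 CPM in PEO1 and 8.26 to 13.3 CPM in PEO4 cells. The part of these markers in the members' differences was not tested. In such bulk RNA, fewer cells with a transcript and less of it per cell cannot be told apart.

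Between the untreated lines most members differed. A gene was called where edgeR's quasi-likelihood test gave p under 0.05, after Benjamini-Hochberg adjustment across the whole table, and its log2 fold change exceeded 1 in size. NKD2 had 0 counts in all 24 libraries (3 counts would be 0.0470 to 0.160 CPM), which left 9 members tested. In PEO4 against BRCA2-deficient PEO1 cells 8 of the 9 were called, 6 higher and 2 lower, where 25.8% of all tested genes were called. In untreated PEO4 against PEO1BRCA+ cells 7 of 9 were called, 6 higher and 1 lower, beside 24.8% of all genes. A pathway drawing in the study marks these families for genes upregulated in PEO4 relative to PEO1BRCA+ cells. Those genes lie near intergenic or intronic G4s found in PEO4 cells only. That count is therefore not independent evidence of a direction. CAMK2B, CAMK2D, CAMK2G, PRICKLE2, PRICKLE4 and NKD1 were higher in PEO4 cells in both sets, and PRICKLE1 was lower in both. The sets were scaled separately, so levels in one are set beside the other without a test unless stated.

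After PDS most of the calls were in PEO4 cells. In PEO4 cells 5 of 9 members were called at 2 h, PRICKLE1 up and CAMK2B, NKD1, PRICKLE4 and PRICKLE2 down, beside 17.4% of all genes. The same 5 members moved in the same directions at 6 h, beside 22.6% of all genes. In PEO1BRCA+ cells 1 member was called at 2 h (PRICKLE4, down), beside 7.57% of all genes, and 1 at 6 h (CAMK2A, down), beside 8.13%. Between 2 and 6 h, 1 member was called in PEO4 cells (PRICKLE2, down), beside 12.0% of all genes, and 0 in PEO1BRCA+ cells, beside 0.170% of all genes. In that last comparison 4 members had an unadjusted p under 0.05 and DESeq2 called 0. Of the 4, PRICKLE2 (log2 -0.93) and PRICKLE1 (log2 0.49) also had an adjusted p under 0.05, short of the fold threshold. The contrasts with untreated cells share those libraries, and so do the lines' 2 time points.

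The difference in response between the lines was tested as an interaction. At 2 h it was called for 5 of 9 members, with a higher value in PEO4 cells for PRICKLE1 and CAMK2D and a lower one for CAMK2B, NKD1 and PRICKLE2, beside 11.0% of all genes. At 6 h it was called for 4, PRICKLE1, CAMK2B, NKD1 and PRICKLE2, beside 14.8%. From 2 to 6 h 0 members were called for the difference between lines, beside 8.88% of all genes, and DESeq2 called 0. PRICKLE1 (log2 -0.90), CAMK2D (log2 -0.63) and PRICKLE3 (log2 0.28) had an unadjusted p under 0.05. All 3 also had an adjusted p under 0.05, and were short of the fold threshold. With PDS present, 4 of 9 members differed between the lines at 2 h, where 26.5% of all genes did, and 3 at 6 h, where 23.0% did. Those were CAMK2D and PRICKLE4 (higher in PEO4 cells) and CAMK2B (lower) at both times, and NKD1 (lower) at 2 h.

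**Figure D1:**
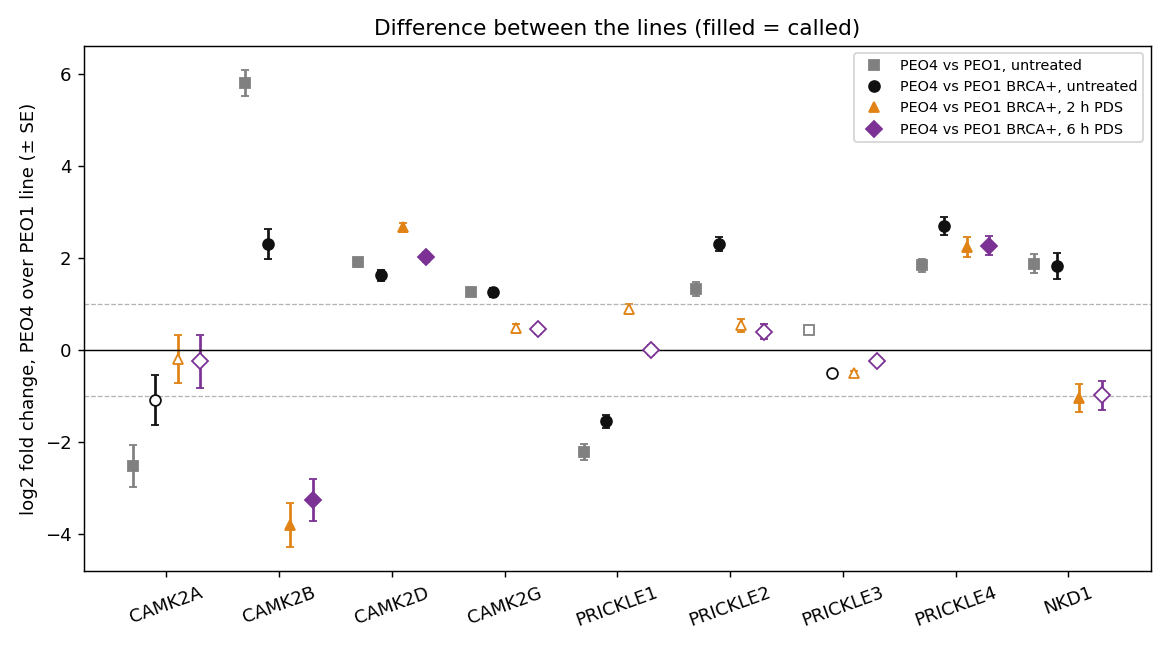
Log2 fold change of PEO4 over the PEO1 line, with its standard error, for each tested member in 4 comparisons. Filled symbols were called, and the CAMK2B symbols move from above 0 in untreated cells to below 0 with PDS.

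**Figure D2:**
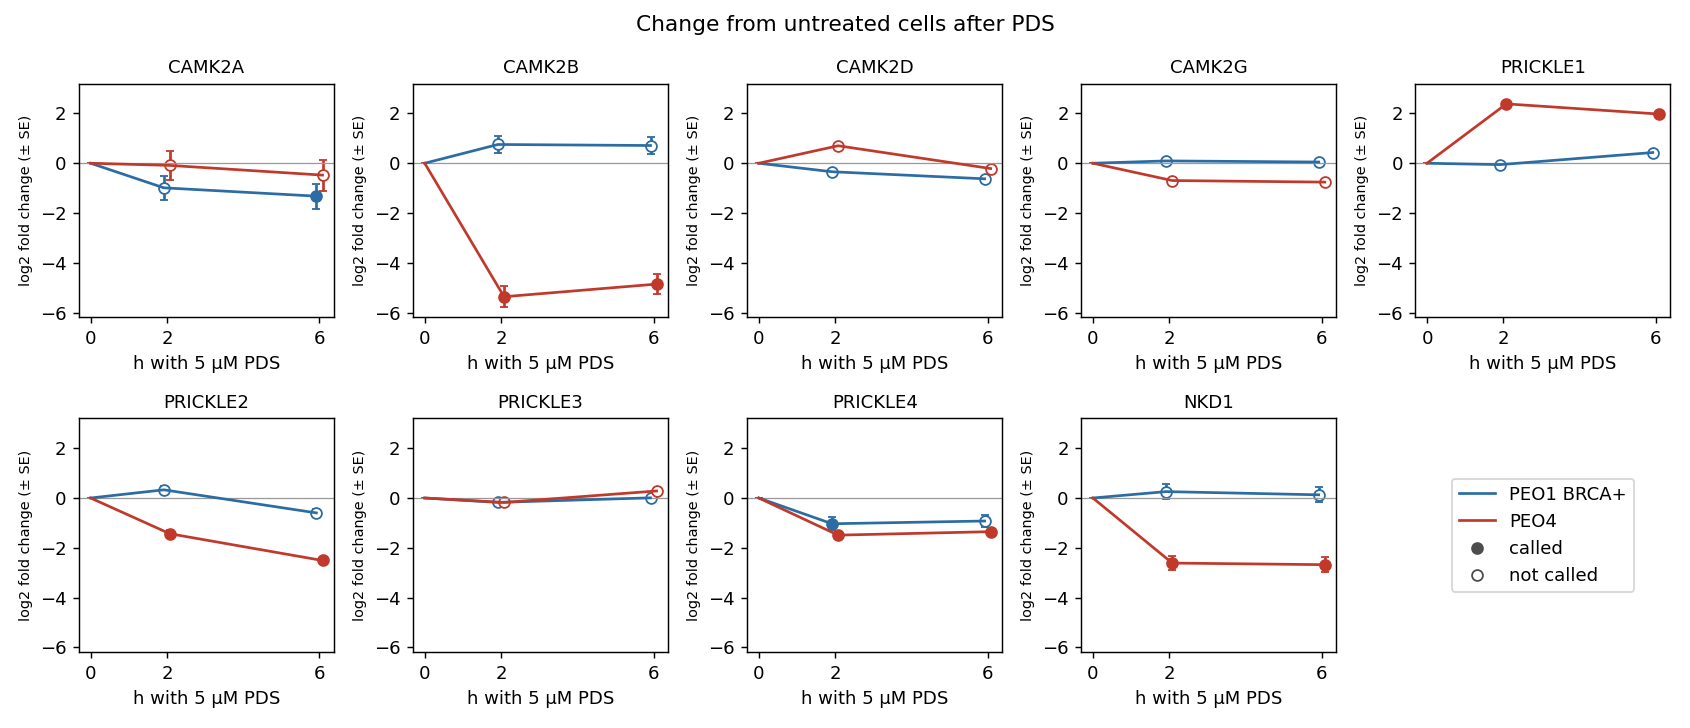
Log2 fold change from untreated cells, with its standard error, after 2 and 6 h with 5 µM PDS in PEO1BRCA+ (blue) and PEO4 (red) cells. Filled points were called, and the interaction was called at both times for CAMK2B, NKD1, PRICKLE1 and PRICKLE2.

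CAMK2B, a calmodulin-dependent kinase of neurons, moved most. In untreated PEO4 cells of the 6-library set it stood at 18.7, 24.1 and 28.2 CPM, and in untreated PEO1 cells at 0.460, 0.160 and 0.582 CPM. The libraries of the lines did not overlap, and the difference was 55.7-fold (log2 5.80 ± 0.29 SE, adjusted p 2.78e-08). In the 18-library set untreated PEO4 cells had 2.21, 1.76 and 1.98 CPM, below all 3 PEO4 libraries of the other set, and PEO1BRCA+ cells had 0.383, 0.496 and 0.307 CPM, a difference of 4.96-fold (log2 2.31 ± 0.33 SE, adjusted p 8.39e-07). After 2 h with PDS PEO4 cells had 0.0555, 0.0566 and 0.0240 CPM, and after 6 h 0.0715, 0 and 0.120 CPM. These libraries held 5 counts in all at 2 h and 7 at 6 h, against 129 in untreated PEO4 cells. The ratio of the summed counts, corrected for depth, was 45.0 (95% exact interval 18.8 to 141 from counting error) at 2 h and 30.8 (14.5 to 78.1) at 6 h. In PEO1BRCA+ cells CAMK2B was at 0.693, 0.698 and 0.626 CPM at 2 h and 0.705, 0.728 and 0.528 CPM at 6 h, all above the untreated libraries but not called (adjusted p 0.0794 and 0.0976). The interaction reached adjusted p 1.11e-08 at 2 h and 1.86e-08 at 6 h. With PDS, PEO1BRCA+ cells thus had 15.2 times (6.22 to 48.3) the CAMK2B of PEO4 cells at 2 h and 10.1 times (4.65 to 26.1) at 6 h.

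CAMK2D, a broadly expressed kinase gene, was higher in PEO4 cells at every time. In PEO1BRCA+ cells it stood at 4.74, 5.70 and 4.74 CPM untreated, at 4.22, 3.98 and 3.82 CPM at 2 h and at 3.44, 3.34 and 3.08 CPM at 6 h. In PEO4 cells it was at 16.3, 16.1 and 14.4 CPM untreated, at 26.1, 28.4 and 21.8 CPM at 2 h and at 13.5, 13.3 and 13.5 CPM at 6 h. The 2 h libraries of PEO4 cells lay above their untreated ones, and the 6 h libraries below. The 2 h level was 1.63-fold the untreated one (log2 0.70 ± 0.09 SE, adjusted p 4.10e-07), short of the fold threshold. The line difference was called at each time, log2 1.62 untreated, 2.66 at 2 h and 2.03 at 6 h, and was 1.91 in the 6-library set. The interaction at 2 h (log2 1.05 ± 0.15 SE, adjusted p 7.92e-06) lay close to the fold threshold. Its log2 value was 0.94 without untreated PEO1BRCA+ replicate 2, 0.99 without untreated PEO4 replicate 3 and 0.95 without PEO4 2 h replicate 2.

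CAMK2G was the most abundant member of its family. It stood at 137, 101 and 150 CPM in untreated PEO4 cells, at 78.8, 81.8 and 79.1 CPM at 2 h and at 78.3, 75.4 and 75.6 CPM at 6 h. PEO1BRCA+ libraries lay between 48.8 and 58.8 CPM at all times, with no call. The treated PEO4 libraries lay below the untreated ones, 1.62-fold at 2 h (adjusted p 2.37e-06) and 1.69-fold at 6 h (adjusted p 6.11e-07), short of the fold threshold. Untreated, PEO4 exceeded PEO1BRCA+ cells 2.39-fold and PEO1 cells 2.41-fold. CAMK2A, the other kinase gene of neurons, was low throughout, at most 1.30 CPM in any library. It was called lower in PEO4 than in PEO1 cells (log2 -2.52 ± 0.46 SE, adjusted p 0.000420) and lower in PEO1BRCA+ cells after 6 h with PDS (log2 -1.32 ± 0.51 SE, adjusted p 0.0312). The latter call was lost without untreated PEO1BRCA+ replicate 2 (log2 -0.90), without PEO1BRCA+ 6 h replicate 3 (log2 -0.95), with no filter on low counts (adjusted p 0.0647) and by DESeq2 (adjusted p 0.0668).

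Counts were divided by length to compare the kinase genes with each other. Per kb of exon, CAMK2G made up 76.3% (PEO4, 6-library set) to 96.0% (PEO1BRCA+ at 6 h) of summed CAMK2 CPM. In PEO4 cells of the 18-library set CAMK2D made up 6.16 ± 1.48% untreated, 14.5 ± 1.47% at 2 h and 8.58 ± 0.13% at 6 h (SD, n = 3). Without division by length the same shares were 10.9, 24 and 14.9%. In untreated PEO4 cells of the 6-library set CAMK2D made up 13.3 ± 1.01%, or 21.5% without that division. CAMK2B held 10.3 ± 2.07% in untreated PEO4 cells of the 6-library set and 1.04 ± 0.13% in those of the 18-library set. The order CAMK2G over CAMK2D held in all conditions.

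**Figure D3:**
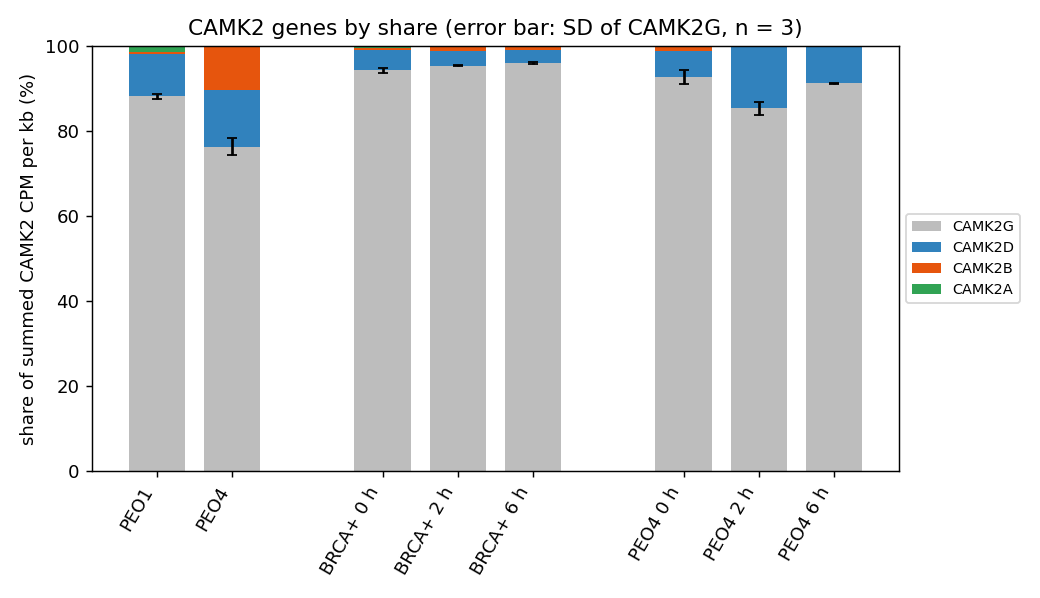
Share of each CAMK2 gene in the summed CPM per kb of the 4 CAMK2 genes, as the mean of 3 libraries in each of the 8 conditions (%). The error bar is the SD of CAMK2G, and the CAMK2B share is visible in PEO4 cells of the 6-library set and small elsewhere.

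Among the PRICKLE genes, which encode planar polarity proteins, PRICKLE1 rose and PRICKLE2 and PRICKLE4 fell in PEO4 cells after PDS. PRICKLE1 stood at 3.38, 3.16 and 2.40 CPM in untreated PEO4 cells, at 16.1, 14.9 and 15.7 CPM at 2 h and at 12.2, 10.8 and 12.2 CPM at 6 h. The treated libraries did not overlap the untreated ones, and PRICKLE1 rose 5.23-fold at 2 h (log2 2.39 ± 0.13 SE, adjusted p 1.23e-13) and 3.94-fold at 6 h (log2 1.98 ± 0.14 SE, adjusted p 3.70e-12). In PEO1BRCA+ cells it was at 7.81, 10.4 and 8.03 CPM untreated, at 8.44, 8.20 and 8.68 CPM at 2 h and at 13.5, 11.5 and 10.5 CPM at 6 h, with no call. Untreated PEO4 cells thus held 2.94-fold less PRICKLE1 than PEO1BRCA+ cells. At 2 h they held 1.85-fold more with no overlap (log2 0.89 ± 0.11 SE, adjusted p 7.70e-08), short of the fold threshold. After 6 h the lines overlapped (log2 difference -0.01 ± 0.11 SE). In the 6-library set PRICKLE1 was at 1.88, 2.64 and 2.27 CPM in PEO4 and at 11.7, 9.85 and 9.85 CPM in PEO1 cells.

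PRICKLE2 stood at 18, 22.6 and 19 CPM in untreated PEO4 cells, at 6.58, 7.50 and 7.85 CPM at 2 h and at 2.55, 3.42 and 4.55 CPM at 6 h. The 3 times did not overlap, with a fall of 2.71-fold at 2 h (log2 -1.44 ± 0.13 SE) and 5.71-fold at 6 h (log2 -2.51 ± 0.14 SE, adjusted p 1.37e-13). The further fall from 2 to 6 h (log2 -1.08 ± 0.15 SE) was called, and was -0.87 without PEO4 6 h replicate 1. In PEO1BRCA+ cells PRICKLE2 was at 3.88, 3.64 and 4.52 CPM untreated, at 4.79, 5.04 and 5.28 CPM at 2 h and at 2.60, 2.58 and 2.76 CPM at 6 h. Its 2 h libraries lay above and its 6 h libraries below the untreated ones, with no call (6 against 2 h, log2 -0.93 ± 0.16 SE, adjusted p 0.000581). At 6 h PEO4 cells overlapped PEO1BRCA+ cells in PRICKLE2. The PRICKLE2 gene overlaps PRICKLE2-AS1 on the opposite strand, and whether strand was used in counting is not given in the sources used here. PRICKLE2-AS1 had 0 counts in the 6-library set and 36.4 to 50.6% of the PRICKLE2 count in the 18-library set, and its log2 fold change in PEO4 cells was -1.66 at 2 h and -2.60 at 6 h.

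PRICKLE4 showed the largest line difference among the 9 members in untreated cells of the 18-library set, at 12.5, 9.99 and 11.3 CPM in PEO4 and at 1.77, 1.65 and 1.80 CPM in PEO1BRCA+ cells (6.46-fold, log2 2.69 ± 0.20 SE, adjusted p 7.18e-12). In PEO4 cells it fell to 4.11, 4.64 and 3.29 CPM at 2 h (log2 -1.49 ± 0.17 SE) and stood at 4.70, 4.79 and 3.71 CPM at 6 h. In PEO1BRCA+ cells it stood at 0.787, 0.802 and 0.955 CPM at 2 h (log2 -1.04 ± 0.25 SE). That call was lost without PEO1BRCA+ 2 h replicate 1 or 2 (log2 -0.98 for each). At 6 h PRICKLE4 there lay below the untreated libraries (log2 -0.92 ± 0.25 SE, adjusted p 0.00321), short of the fold threshold. The 6 h fall was called with library totals (log2 -1.07), upper-quartile scaling (log2 -1.01) and without PEO1BRCA+ 6 h replicate 2 (log2 -1.21). The fall did not differ detectably between the lines (interaction log2 -0.46 ± 0.31 SE, adjusted p 0.256, at 2 h). The gene just downstream, TOMM6, was not called, at 81.9 ± 9.93 CPM in untreated PEO4 cells and 116 ± 6.67 CPM at 2 h (SD, n = 3). Its other neighbour tested, FRS3, was called higher in PEO4 cells in all 4 line comparisons (log2 1.02 to 1.43) and was not called after PDS. PRICKLE3 was called in none of the 14 comparisons, all below the fold threshold. Its line difference had opposite signs in the 2 sets, with no overlap of libraries in either (log2 0.43, adjusted p 0.00162, for PEO4 against PEO1, and log2 -0.51, adjusted p 4.49e-08, against PEO1BRCA+), and the change between the sets was log2 -0.91 ± 0.09 SE (adjusted p 7.51e-09). It lay between 38.3 and 69.2 CPM in the 18-library set and between 20.1 and 30.0 CPM in the 6-library set, and overlaps PLP2 on the opposite strand, which was called lower in PEO4 cells in all 4 line comparisons (log2 -1.97 to -1.10).

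NKD1, a Dishevelled-binding inhibitor, fell in PEO4 cells after PDS. It stood at 9.65, 3.72 and 11.8 CPM in untreated PEO4 cells, at 1.47, 1.05 and 1.58 CPM at 2 h and at 1.26, 1.22 and 1.47 CPM at 6 h. Untreated replicate 2 was the lowest of the untreated libraries, and every treated library lay below it. The fall was 6.13-fold at 2 h (log2 -2.62 ± 0.29 SE, adjusted p 2.60e-07) and 6.41-fold at 6 h (log2 -2.68 ± 0.29 SE, adjusted p 1.70e-07). Without untreated replicate 2 the falls were -2.96 and -3.02 on the log2 scale. In PEO1BRCA+ cells NKD1 stayed between 2.23 and 3.13 CPM at all times, with no call. Untreated PEO4 cells had 3.53 times the NKD1 of PEO1BRCA+ cells, and at 2 h they had less (log2 -1.05 ± 0.31 SE, adjusted p 0.00483). That last call was lost without PEO1BRCA+ 2 h replicate 2 (log2 -0.98) or PEO4 2 h replicate 2 (log2 -0.90). In the 6-library set NKD1 stood at 17.9, 11.3 and 11.8 CPM in PEO4 and at 4.56, 3.58 and 3.10 CPM in PEO1 cells. NKD2, its paralogue, was not detected.

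**Figure D4:**
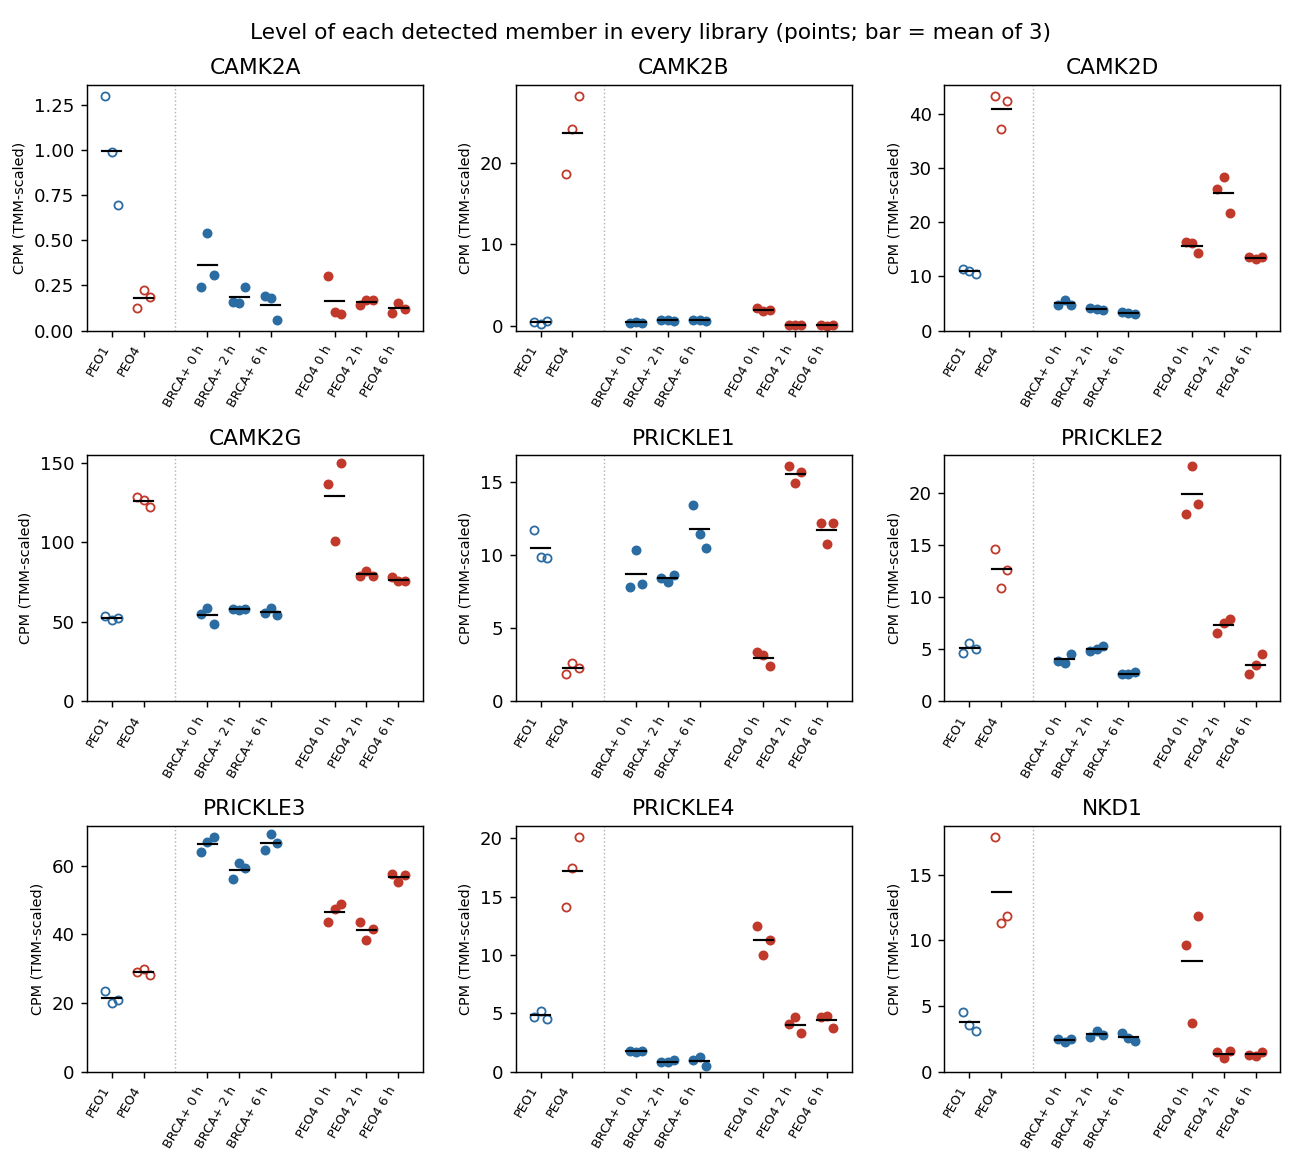
CPM of each detected member in every library, on a linear axis, with the mean of 3 as a bar. Open circles are the 6-library set and filled circles the 18-library set, with PEO1 or PEO1BRCA+ in blue and PEO4 in red.

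The line differences of the 2 sets were compared in a joint fit of all 24 libraries. The difference was called to change for 2 of 9 members, beside 15.0% of all genes. CAMK2B was the less raised in PEO4 cells of the 18-library set (log2 -3.45 ± 0.50 SE, adjusted p 2.58e-06), and PRICKLE2 the more raised (log2 1.01 ± 0.21 SE). The PRICKLE2 value lies at the threshold, and fell under it without PEO1 replicate 2 (0.94) or PEO4 replicate 2 (0.91) of the 6-library set, without untreated PEO1BRCA+ replicate 1 (0.98) or 2 (0.94) or untreated PEO4 replicate 2 (0.91) of the 18-library set, and under other scalings (0.94 to 0.97). For CAMK2B the change lay in the PEO4 libraries, at 23.6 ± 4.77 CPM in the 6-library set and 1.98 ± 0.23 CPM in the other (SD, n = 3), while PEO1 and PEO1BRCA+ cells stood at 0.401 ± 0.22 and 0.395 ± 0.09 CPM. The paper names sodium pyruvate as a further medium supplement for the BRCA2-deficient PEO1 cells and the PEO4 cells paired with them. The cause of the CAMK2B change was not tested. For PRICKLE2, PEO4 cells stood at 12.7 ± 1.87 and 19.8 ± 2.44 CPM and the PEO1 lines at 5.09 ± 0.49 and 4.01 ± 0.46 CPM. For PRICKLE2 the state of BRCA2 in the PEO1 line and the set cannot be told apart. The CAMK2B change lay between PEO4 libraries, a line that is the same in both sets. PRICKLE2-AS1 had 0 counts in every library of the 6-library set and not in the other. Whether counting differed between the sets, and its part in these changes, was not tested.

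Among 30 tested genes of a planar polarity list, 7 fell and 0 rose in PEO4 cells at 2 h (23.3% called, beside 17.4% of all genes), with a list median of log2 -0.27 against 0.00 for all genes, and 8 fell and 1 rose at 6 h (30% beside 22.6%, median -0.38 against -0.03). The other genes on the list were not called. WNT5A, a ligand of this branch, dropped from 10.4 ± 0.87 CPM to 1.34 ± 0.19 CPM at 2 h (log2 -2.94 ± 0.16 SE) and 0.726 ± 0.073 CPM at 6 h. It also fell in PEO1BRCA+ cells (log2 -1.36 ± 0.15 SE at 2 h and -1.70 ± 0.16 SE at 6 h). ROR1, a receptor for it, had a log2 fold change of -1.95 at 2 h. CELSR1, a cadherin of the polarity complex, stood at -2.47 and WNT11, another ligand, at -2.88 at 6 h. In PEO1BRCA+ cells 2 of 30 fell at 2 h (6.67% beside 7.57%) and 3 at 6 h (10% beside 8.13%), and 0 rose. Between the untreated lines 4 were higher and 2 lower in PEO4 than in PEO1BRCA+ cells (20% beside 24.8% of all genes), with WNT11 up by log2 6.57 ± 0.26 SE and ROR1 at log2 -1.93. In the 6-library set WNT11 was also higher in PEO4 cells (log2 2.44 ± 0.16 SE), while ROR1 was not called (log2 0.72 ± 0.15 SE) and WNT5A was lower (log2 -3.33 ± 0.15 SE).

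Of 31 tested WNT/calcium and calmodulin-linked genes, 3 rose and 2 fell in PEO4 cells at 2 h, as many as at 6 h, with medians of log2 -0.02 and 0.00. That is 16.1% of the list, beside 17.4 and 22.6% of all genes, so neither share exceeded that of all genes. CAMK1D, a kinase related to the CAMK2 genes, had log2 fold changes of -2.50 at 2 h and -3.54 at 6 h. PPP3CC, a calcineurin subunit, rose by log2 1.13 and 1.44. Between the untreated lines 6 of 31 were lower and 0 higher in PEO4 than in PEO1BRCA+ cells (19.4% beside 24.8% of all genes), with PLCB4, a phospholipase, at log2 -3.34.

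Of 23 tested beta-catenin pathway genes, 5 fell and 1 rose in PEO4 cells at 2 h, and 5 fell and 0 rose at 6 h (medians -0.24 and -0.10). These are 26.1% of the list at 2 h, beside 17.4% of all genes, and 21.7% at 6 h, beside 22.6%. AXIN2, a beta-catenin target like NKD1, stood at 26.2 ± 13.8 CPM in untreated PEO4 cells, at 2.97 ± 0.35 CPM at 2 h and at 1.24 ± 0.27 CPM at 6 h (log2 -3.15 ± 0.34 SE at 2 h). NOTUM, which inactivates WNT ligands, was at 4.30 ± 3.63 CPM untreated and had at most 4 counts per library at 2 h and 0 at 6 h. LEF1 had at most 18 counts per library untreated and 0 at 6 h. In PEO1BRCA+ cells 1 of 23 fell at 2 h (4.35% beside 7.57% of all genes) and 2 at 6 h (8.70% beside 8.13%), and 0 rose. These were SP5, a beta-catenin target, at log2 -1.62 and -1.40, and RNF43, a ubiquitin ligase for WNT receptors, at log2 -1.12 at 6 h. AXIN2 there stood at 0.957 ± 0.050 CPM untreated and 0.857 ± 0.27 CPM at 6 h.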

How the data were processed

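Counts per gene were deposited by the authors without normalization, as whole-number counts in 1 table of 6 libraries and 1 of 18. The submitters' processing notes name FastQC, fastp, STAR, featureCounts and hg38, and versions, annotation and the use of strand are not given in the sources used here. After leaving out 2 lines and 1 line without readable counts, each table held 28277 genes. The kit stated for the 6 libraries is directional.

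Tests used edgeR 4.0.16 under R 4.3.3 (filterByExpr, minimum count 10 and total 15, TMM, robust quasi-likelihood fit with a mean per condition), which left 15882, 17020 and 17531 genes in the table of 6, the table of 18 and the joint fit. Residual degrees of freedom were 4, 12 and 16. A call needed p under 0.05 after Benjamini-Hochberg adjustment and a log2 fold change beyond 1 in either direction. P-values measure the spread between replicates, which are described as biological. CPM were scaled by TMM within each table. Count ratios have exact conditional 95% intervals that cover counting error only. Members and lists were chosen with earlier results of these data known. All members were named, with up to 4 called genes per list and comparison of largest change, and, for members whose condition means spanned over 1 log2 CPM in the table of 18, the 3 nearest patterns. Within each group, replicates varied beyond counting noise, and none was merged. Alternatives were library totals, DESeq2 1.42.0 size factors and Wald test, upper-quartile scaling, other filters, adjusted p alone, only the groups compared, a replicate block and each library left out. The scripts were tested on simulated data. G4 peaks and accessibility were not analysed here.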

Additional observations from a re-analysis of the deposited data

Results flagged for a closer look

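Responses to PDS differed between the lines for 5 members at 2 h, and this flagged them. The interaction, as PEO4 minus PEO1BRCA+ in log2 fold change from edgeR, was -6.12 for CAMK2B, -2.87 for NKD1, -1.77 for PRICKLE2, 2.44 for PRICKLE1 and 1.05 for CAMK2D. At 6 h it was -5.57 for CAMK2B, -2.81 for NKD1, -1.91 for PRICKLE2 and 1.55 for PRICKLE1. The CAMK2B values rest on 5 and 7 counts in all in treated PEO4 cells. The difference between PEO4 and the PEO1 line changed between the 2 sets by -3.45 for CAMK2B and by 1.01 for PRICKLE2. CAMK2B in untreated PEO4 cells was at 23.6 ± 4.77 CPM in one set and at 1.98 ± 0.23 CPM in the other (SD, n = 3), 2 sets that were scaled separately.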

How the results depend on the processing

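No called value changed sign under any alternative run. Values that were not called did change sign in places, as for CAMK2A in PEO4 at 2 h (log2 -0.09, and 0.71 without untreated PEO4 replicate 1) and CAMK2B in PEO4 at 6 against 2 h (log2 0.51, and -0.13 without PEO4 6 h replicate 3). Calling by adjusted p alone gave 8 members for the lines at 2 h, 7 at 6 h, 3 and 5 for PEO1BRCA+ at 2 and 6 h, 2 for its 6 against 2 h, 8 for PEO4 at 2 h, 4 for its 6 against 2 h, 7 and 3 for the interactions at 6 h and 6 against 2 h, and 5 for the comparison of the 2 sets. For PEO1BRCA+ at 6 h, library totals and upper-quartile scaling gave 2 members, and no filter, a minimum count of 50, only the groups compared and DESeq2 gave 0. For the comparison of the 2 sets, library totals, DESeq2 size factors, upper-quartile scaling, a minimum count of 50, only the groups compared and DESeq2 gave 1. The CAMK2D share in PEO4 cells at 2 h was 24% from CPM not divided by length. Leaving out each library in turn gave 8 to 8 and 7 to 8 members for the untreated lines of the 6 and 18 libraries, 3 to 4 at 2 h and 3 to 4 at 6 h, 0 to 1 and 0 to 2 for PEO1BRCA+ at 2 and 6 h, 0 to 0 for its 6 against 2 h, 5 to 5 for PEO4 at 2 and at 6 h, 0 to 2 for its 6 against 2 h, 4 to 5, 4 to 4 and 0 to 0 for the interactions, and 1 to 3 for the 2 sets. Same-numbered replicates did not deviate together (r from -0.043 to 0.023 and from -0.158 to 0.134), and a replicate block changed 0 calls, with 5 of 9 members called in PEO4 at 2 h. All-gene counts that moved over 1.5 times were those by adjusted p alone (1182 to 12401), 840 for PEO1BRCA+ at 2 h with a minimum count of 50, and, for its 6 against 2 h, 12 with that filter, 16 with DESeq2 and 13 to 19 with a library left out. The cause was not tested. Precision is lowest for CAMK2A, with 2 to 13 counts per library in the 18-library set, and for CAMK2B in treated PEO4 cells, with 0 to 4.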

Other observations

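Over the 8 condition means of centred log2 CPM, the 3 genes nearest to each member, by root mean square difference among genes with a mean log2 CPM of at least 3, were as follows. For CAMK2A they were DISP2, FAM131B and FBN2, at 0.15 to 0.21. For CAMK2B they were LGR6, PTGER2 and N4BP3, at 0.91 to 0.98. For CAMK2D they were CD40, DEF6 and SLC39A11, at 0.24 to 0.25. For CAMK2G they were LLGL2, PLEKHF2 and LOC93622, at 0.06 to 0.10. For PRICKLE1 they were BDNF, EXT1 and SRPX2, at 0.23 to 0.30. For PRICKLE2 they were HID1, PLEKHA4 and PEMT, at 0.25 to 0.28. For PRICKLE4 they were SLC35E2A, DTX4 and CDSN, at 0.20 to 0.28. For NKD1 they were GALNT18, DPP4 and H2BC12, at 0.21 to 0.30. The CAMK2B pattern was the one with no near neighbour, at 0.91 log2 units or more. These are descriptions over 8 means, and say nothing of shared function.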
